A study of Drosophila melanogaster with 3 samples.

Results

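Ecdysone is the steroid hormone that times the molts and metamorphosis of insects, and a pulse of it in mid-embryogenesis is needed for the embryo to complete its shape changes and lay down the larval cuticle. The 10 genes described here make the hormone or answer to it. They were picked by name, though earlier results of these data were known. They are *phm* and *dib* for synthesis, *EcR* and *usp* for the receptor, and *br*, *Eip74EF*, *Eip75B*, *Hr3*, *Hr39* and *ftz-f1* for the response. A probe was taken where the platform annotation gives it 1 symbol that is the current or an older name of 1 of these genes. This gave 11 probes for 7 genes, out of 11984 probes that are not control spots. *Eip74EF*, *Eip75B* and *dib* had no probe with 1 symbol and were not analysed here. All 11 probes had a value on every array.

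Wild-type *Drosophila melanogaster* embryos injured by a laser were set against uninjured wild-type embryos on 3 arrays with 2 colours, called A, B and C. Uninjured embryos carried Cy3 and wounded embryos Cy5 on each array, so dye and wounding cannot be told apart. The sources used here do not give the age of the embryos, the time after wounding or the number of embryos behind an array. Nothing in the labels says whether the arrays hold separate embryo collections, so a p-value here measures only the spread between 3 arrays, which may be technical. Each array gave 12068 to 12110 values, and all are ratios: they hold no level, so neither the tissue nor the expression of a gene could be checked from them. A positive log2 ratio is called a high ratio, which is likely higher in wounded embryos, because Cy5 is the usual numerator and the series title names the wounded sample first. The sample titles name the unwounded embryos first, so this direction is not settled, and with the reverse ratio high and low would swap throughout. In whole embryos, fewer cells of a type and less RNA per cell cannot be told apart.

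Ecdysone is built from dietary sterol by cytochrome P450 enzymes of the Halloween group, to which *phm* and *dib* belong. It acts through a pair of nuclear receptors, EcR, which binds the hormone, and Ultraspiracle, its partner, which is the fly homologue of the vertebrate RXR. The receptor turns on a first set of regulators, among them *br*, *Eip74EF* and *Eip75B*. These act with *Hr3* and *Hr39* on later genes, and *ftz-f1*, which is activated by HR3 in prepupae, follows as the hormone falls.

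No probe of these genes passed the test for a difference between wounded and unwounded embryos. With limma and Benjamini-Hochberg adjustment over 11887 probes, 0 of the 11 probes reached an adjusted p of 0.05, where 1.55% of all probes did. At an unadjusted p under 0.05 there were 2 of 11, against 18.4% of all probes. Both were of *Hr3*, 1 high (9.41% of all probes) and 1 low (8.96%). The mean log2 ratios ran from −0.31 to 0.20, and 8 of 11 were above 0, against 51.3% of all probes. Every mean was nearer to 0 than the smallest called probe of the whole array, at 0.37 in size. The same sign on 3 arrays was found for 5 of 11 probes and for 41.7% of all probes. With gene means, 0 of 7 genes passed, where 2.01% of 8215 genes did, and the smallest adjusted p was 0.331, for *br*. The median of the 7 gene means was 0.06, beside 0.00 over all genes, and it turned to −0.06 without array C.

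**Figure D1:**
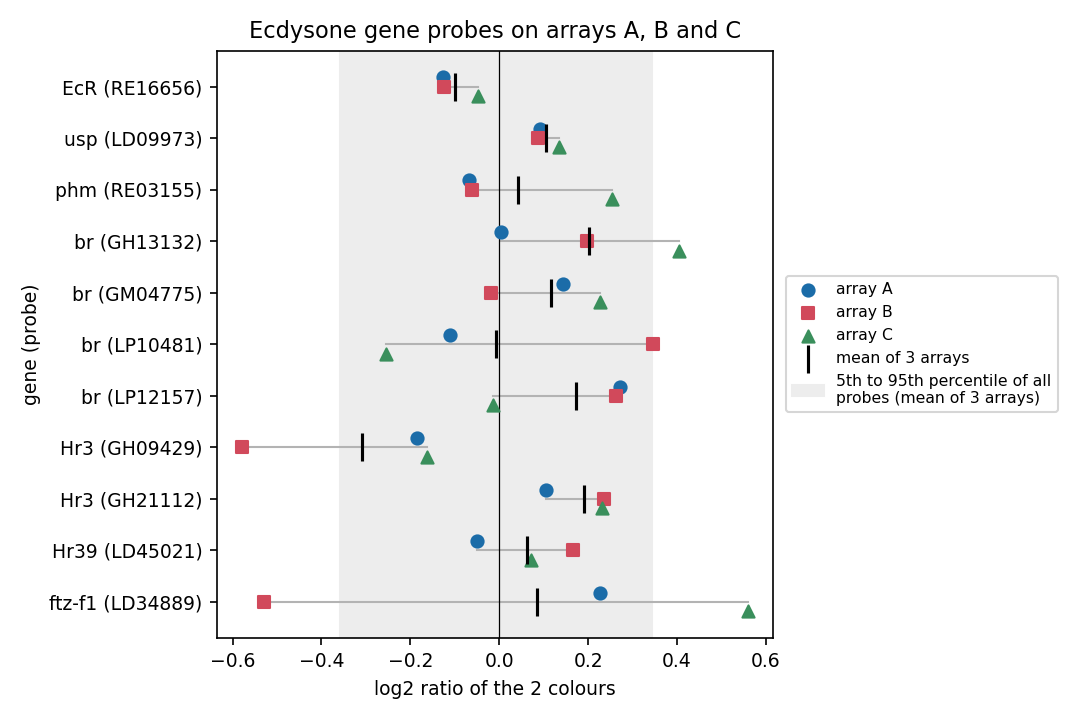
The log2 ratio of each ecdysone gene probe is plotted for arrays A, B and C, with the mean of the 3 arrays as a black bar and the 5th to 95th percentile of all probes in grey. The receptor genes *EcR* and *usp* lie in narrow ranges on opposite sides of 0, while *ftz-f1* spans from −0.53 on array B to 0.56 on array C.

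The receptor genes gave the most even values. *EcR*, measured by probe RE16656, had log2 ratios of −0.13, −0.12 and −0.05 across arrays A, B and C. All 3 arrays lay below 0, by less than 0.13. The mean was −0.10 ± 0.04 (SD, n = 3), a ratio of 0.933, short of the threshold (limma adjusted p = 0.408; 95% interval −0.24 to 0.04). *usp*, measured by LD09973, had 0.09, 0.09 and 0.13. All 3 arrays lay above 0, and its SD of 0.03 was the smallest among the 11 probes. The mean was 0.10 ± 0.03 (SD, n = 3), a ratio of 1.08 (limma adjusted p = 0.375; 95% interval −0.03 to 0.24). The partners of the receptor therefore had means of opposite sign, and neither differed from 0 at the adjusted threshold.

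For hormone synthesis, 1 of the 2 genes was measured. *phm*, whose current symbol is *phtm*, encodes the P450 enzyme Phantom of the prothoracic gland. Its probe RE03155 had log2 ratios of −0.07, −0.06 and 0.25 across arrays A, B and C. Array C stood above the other two, which lay just below 0. The mean was 0.04 ± 0.18 (SD, n = 3), with a limma adjusted p of 0.839, and without array C it was −0.06.

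*br*, which encodes a family of BTB zinc-finger proteins, had 4 probes, the most of any of these genes. GM04775 had 0.14, −0.02 and 0.23 across arrays A, B and C. LP12157 had 0.27, 0.26 and −0.01. Each of this pair had 1 array slightly below 0, a different one in each case. GH13132, which the annotation lists under *CG11509*, an older name now merged into *br*, had 0.00, 0.20 and 0.40 and was the one *br* probe above 0 on all arrays. LP10481 went its own way, with −0.11, 0.35 and −0.25, positive on array B alone. The probe means were 0.12, 0.17, 0.20 and −0.01 in that order, with limma adjusted p from 0.309 to 0.986. Averaged over the 4 probes, *br* had 0.08, 0.20 and 0.09, and its gene mean was 0.12 ± 0.07 (SD, n = 3; limma adjusted p = 0.331; 95% interval −0.02 to 0.26). The span of its clone means, 0.21, was ordinary: 53.8% of the 26 genes with 4 clones had a smaller one. *br* is spliced into several zinc-finger forms, and which form each clone holds was not analysed here.

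*Hr3*, a nuclear receptor of the ROR type, was measured by 2 clones that disagreed. GH09429 had log2 ratios of −0.19, −0.58 and −0.16 across arrays A, B and C. All 3 arrays were low, array B the most. Its mean was −0.31 ± 0.23 (SD, n = 3), a ratio of 0.807 (limma adjusted p = 0.188; unadjusted p = 0.0228). GH21112 had 0.11, 0.24 and 0.23. All 3 arrays were high, and its mean was 0.19 ± 0.07 (SD, n = 3), a ratio of 1.14 (limma adjusted p = 0.181; unadjusted p = 0.0206). GH21112 exceeded GH09429 by 0.29, 0.81 and 0.39 across arrays A, B and C, on average by 0.50 ± 0.28 (SD, n = 3). An exact two-sided sign-flip test gave p = 0.25, the smallest that 3 arrays allow, and the comparison was chosen after the values were seen. Among 1012 genes measured by exactly 2 clones, 96.4% had a smaller gap between them, and the median gap was 0.08. The gene mean, −0.06 ± 0.10 (SD, n = 3; limma adjusted p = 0.676), averages these opposite values and stands for neither clone. Both clones come from the GH library, which made up 18.2% of tested probes and 51.2% of low calls, so each clone was also read with the library centred on each array. The means were then −0.28 for GH09429 and 0.22 for GH21112, still opposite in sign (limma adjusted p = 0.235 and 0.150), and the gene mean moved to −0.03. Without array B the gene mean was −0.0027, and without array C −0.11.

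*Hr39* encodes a nuclear receptor closely related to FTZ-F1. Its probe LD45021 had −0.05, 0.17 and 0.07 across arrays A, B and C. Array B was the highest and array A just below 0. The mean was 0.06 ± 0.11 (SD, n = 3; limma adjusted p = 0.669). It was 0.12 without array A and 0.01 without array B.

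*ftz-f1* encodes a nuclear receptor that works with the pair-rule protein Fushi tarazu in the early embryo, and whose later form gives tissues the competence to answer the next hormone pulse. Its probe LD34889 had log2 ratios of 0.23, −0.53 and 0.56 on arrays A, B and C in turn, which are ratios of 1.17, 0.693 and 1.47. Arrays A and C were high and array B was low. The mean of 0.09 ± 0.56 (SD, n = 3) therefore describes no array (limma adjusted p = 0.865), and 98.8% of tested probes had a smaller SD. The 95% interval, −0.43 to 0.60, was the widest among the 11 probes. Without array B the gene mean was 0.39, with a limma adjusted p over all gene means of 0.143, and without array C it was −0.15.

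Array B was then set against arrays A and C, as a description without a test, since the labels give array B no age or condition of its own. The difference between array B and the mean of the other two was −0.92 for *ftz-f1*. Only 0.505% of tested probes lay lower, and the middle 90% of probes lay between −0.39 and 0.31. It was −0.76 against array A alone and −1.09 against array C alone. *Hr3* clone GH09429 also lay low on array B, at −0.40. In the other direction, *br* probe LP10481 lay 0.53 higher on array B, above 98.5% of tested probes. The remaining 8 probes lay between −0.20 and 0.16, inside the middle 90%. Array B was the lowest of the 3 for 4 of 11 probes and the highest for 3, where 33.3% and 39.5% of all probes were. Array B opposed both other arrays in sign for 3 of 11 probes (*ftz-f1* and *br* probes GM04775 and LP10481), where 24.1% of all probes did. On array B the 11 probes thus lay both above and below the other arrays. The median difference of the 7 genes was −0.04, beside 0.02 over all genes.

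**Figure D2:**
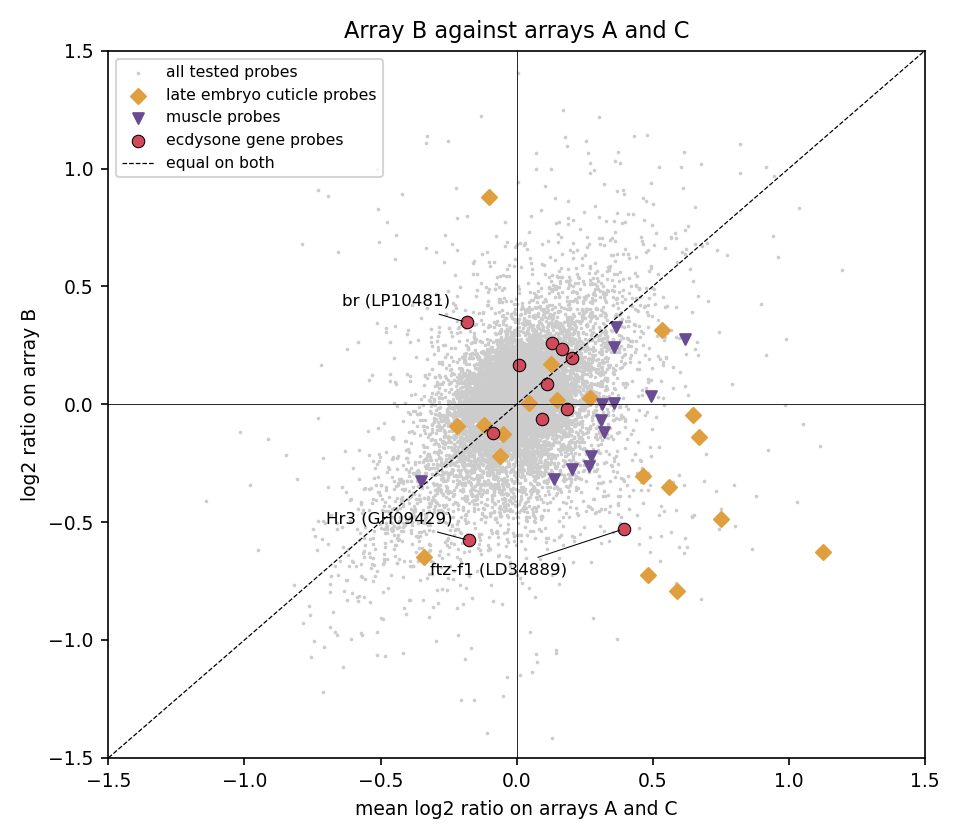
Each tested probe is placed by its mean log2 ratio on arrays A and C (horizontal) and its log2 ratio on array B (vertical), and 11 probes beyond 1.5 in size are not drawn. The *ftz-f1* probe lies at lower right with 8 of the 19 late embryo cuticle probes, and *br* probe LP10481 lies on the other side of the dashed line of equality.

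The cuticle and muscle lists had their lowest median on array B, as *ftz-f1* did. By smaller margins the same held for the neuron list below, the 7 ecdysone genes (−0.04, −0.06 and 0.09) and the early response regulators (0.02, −0.03 and 0.08). Over 17 measured cuticle and chitin genes of the late embryo, the median log2 ratios on arrays A, B and C were 0.26, −0.13 and 0.25. Array B was the lowest of the 3 for 15 of 19 probes of that list and the highest for 1. That probe, of *Cpr76Bd*, lay 0.98 above the mean of the other two. Over 5 measured muscle genes the medians were 0.12, −0.17 and 0.38, and array B was the lowest for 10 of 13 probes, several of which share a gene. Over 11 measured early embryo and maternal genes the medians were −0.10, 0.02 and −0.09, with array B the lowest for 2 of 13 probes and the highest for 4. The median difference between array B and the mean of the other two was 0.01 in that list, beside 0.02 over all genes. The parts of embryo age and of array quality in the *ftz-f1* values were not tested. No label gives the age, and the cuticle pattern was known from earlier results on these arrays. Medians were 0.13, 0.22 and −0.12 for fat body (3 genes), −0.06, −0.11 and 0.13 for neurons (5 genes), 0.00, 0.05 and 0.14 for haemocytes (6 genes) and −0.08, −0.13 and −0.14 for the epidermis (6 genes). Of the ring gland list, 2 of 8 genes were measured, *phm*, of ecdysone synthesis, and *jhamt*, of juvenile hormone synthesis. Among the 72 probes of these marker lists 0 passed with a high ratio (0.513% of all probes) and 2 with a low ratio (1.03%), 1 of *gnu* (−0.72, in the early list) and 1 of *Fbp2* (−0.48, in the fat body list; limma adjusted p = 0.0441 for each). With gene means, of which 2.01% passed over all genes, *gnu* and *Fbp2* were low again. *Ccp84Aa* of the cuticle list then passed with a high ratio (0.46; limma adjusted p = 0.0434), while its probe fell short (limma adjusted p = 0.0516).

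**Figure D3:**
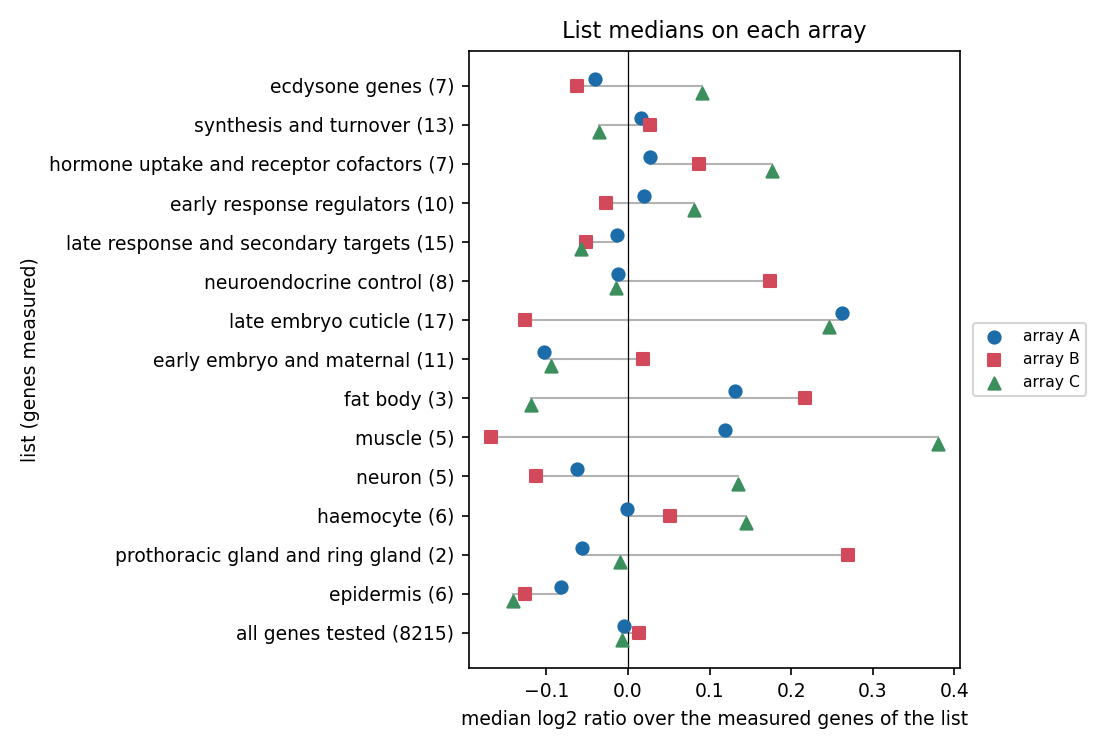
The median log2 ratio over the measured genes of each list is plotted for arrays A, B and C, with the number of measured genes in brackets. The ecdysone genes and the wider ecdysone lists lie within 0.2 of 0, while the cuticle and muscle lists fall below 0 on array B and above it on arrays A and C.

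Wider lists, 5 in number, placed these genes in the pathway. Of their 103 genes, 53 were measured, by 61 probes, and the 7 genes above are among them. At a limma adjusted p of 0.05, 1 of the 61 probes had a high ratio, against 0.513% of all probes, and 0 had a low ratio, against 1.03%. At an unadjusted p under 0.05 there were 13, or 21.3%, close to the 18.4% of all probes. Of the 53 gene means 30 were above 0, against 49.8% of all genes.

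The probe that passed belongs to the list of synthesis and turnover, in which 1 of 14 probes passed for 13 of 21 genes measured (median of gene means −0.01). It was that of *GstE14*, known as *noppera-bo*, a glutathione transferase needed in the prothoracic gland for the supply of sterol to hormone synthesis. RH27559 had 0.45, 0.63 and 0.43 across arrays A, B and C. All 3 arrays were high, with array B the highest. The mean was 0.50 ± 0.11 (SD, n = 3), a ratio of 1.42 (limma adjusted p = 0.0441). Without array A, B or C its limma adjusted p was 0.236, 0.0779 and 0.0790. With any array left out 0 probes of the whole array passed, so this loss is not particular to *GstE14*. It is a clone of the RH library, which made up 8.95% of tested probes and 36.1% of high calls. With each library centred on each array its mean was 0.43 and its limma adjusted p 0.0631. In that setting 0 of 11887 probes passed, and the smallest limma adjusted p was 0.0584. *GstE14* had no other probe with 1 symbol.

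Of the sterol transport genes in the same list, *Npc1a*, which encodes a membrane protein of sterol export from the lysosome, had 0.25, 0.48 and 0.46 with clone RE56428. All 3 arrays were high, at a mean of 0.40 ± 0.13 (SD, n = 3; limma adjusted p = 0.0667), while a re-amplified spot of the same clone had a mean of 0.06. *Npc2a* had a mean of −0.02 and *Start1* one of −0.03. The enzyme genes *shd*, which encodes the last P450 of activation, and *spo* had means of 0.28 ± 0.42 and −0.07 ± 0.20 (SD, n = 3). *Cyp18a1*, which inactivates the hormone, had 0.20 ± 0.25 (SD, n = 3). Beyond *GstE14*, the genes of this paragraph were chosen after their values were seen, and none passed the test.

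Among genes of hormone uptake and receptor cofactors, 0 of 9 probes passed for 7 of 11 genes measured (median 0.07), with 1 at an unadjusted p under 0.05. The 2 of smallest p were *Oatp74D*, which encodes the importer that carries ecdysone into cells, and *trr*, which encodes a histone methyltransferase that works with EcR. *Oatp74D* had 0.07, 0.27 and 0.18 across arrays A, B and C, a mean of 0.17 ± 0.10 (SD, n = 3; limma adjusted p = 0.244). All 3 arrays were above 0, as for *usp*. *trr* had opposite means on its clones, −0.13 for GM10003 and 0.27 for SD13650.

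Among early response regulators, 0 of 14 probes passed for 10 of 18 genes measured (median 0.05), with 4 at an unadjusted p under 0.05, 2 in each direction. The 2 genes of smallest p were *Hr3* and *Kr-h1*, which encodes a zinc-finger protein that answers to ecdysone and juvenile hormone. The *Kr-h1* probe LD32311 had 0.47, 0.55 and 0.16. All 3 arrays were high, with array C the least, and the mean was 0.39 ± 0.20 (SD, n = 3; limma adjusted p = 0.101). The nuclear receptor genes *Hr78* and *Hr96* had means of 0.08 and 0.03, chosen after their values were seen.

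In the list of late response and secondary targets, 0 of 16 probes passed for 15 of 35 genes measured (median −0.02), with 5 at an unadjusted p under 0.05 (18.4% of all probes), 4 of them low (8.96%). The 2 genes of smallest p went in opposite directions. *Ddc*, the dopa decarboxylase gene of cuticle hardening, had −0.13, −0.30 and −0.28, a mean of −0.24 ± 0.09 (SD, n = 3; limma adjusted p = 0.133). *Lsp2*, a larval serum protein gene, had 0.13, 0.25 and 0.37, a mean of 0.25 ± 0.12 (SD, n = 3; limma adjusted p = 0.142). The ecdysone-inducible genes *ImpE1*, *ImpE2* and *ImpE3* had means of −0.19, 0.07 and −0.12, again chosen after their values were seen.

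In the list of neuroendocrine control, 0 of 8 probes passed for 8 of 18 genes measured (median 0.07), with 1 at an unadjusted p under 0.05. *gce*, a receptor gene for juvenile hormone, had 0.55, 0.28 and 0.63 on RH68268. All 3 arrays were high, and the mean was 0.49 ± 0.18 (SD, n = 3; limma adjusted p = 0.0633). Under array weights it passed (limma adjusted p = 0.0334), and it too is an RH clone. *InR*, the insulin receptor gene, had 1.03, 0.91 and −0.29. Arrays A and B were high and array C low, at a mean of 0.55 ± 0.73 (SD, n = 3; limma adjusted p = 0.345).

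**Figure D4:**
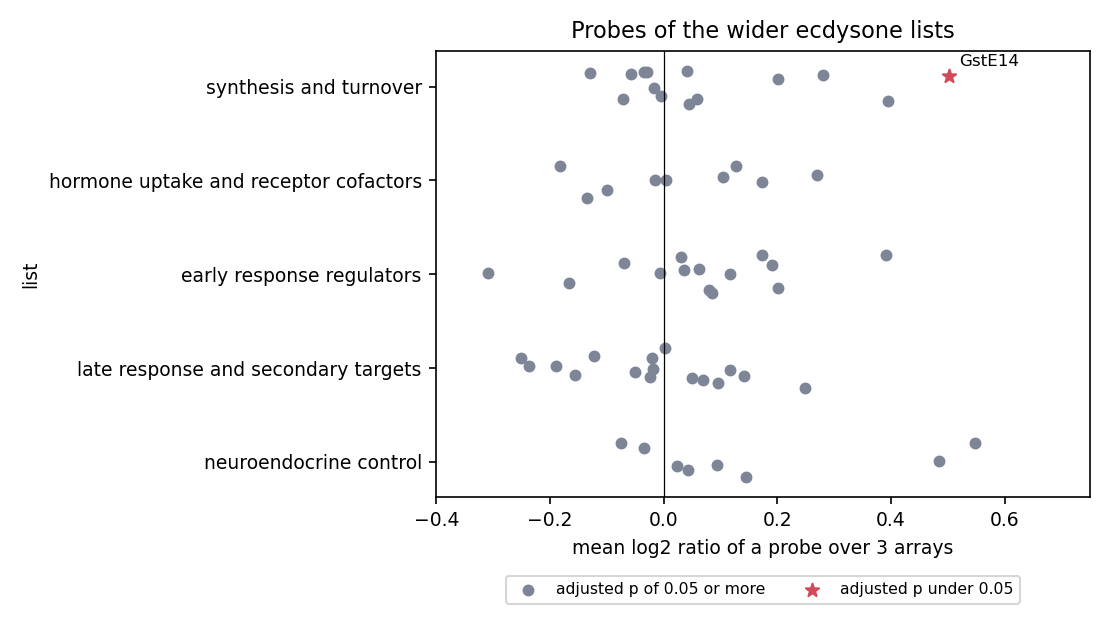
Each point is the mean log2 ratio over 3 arrays of 1 probe of the wider ecdysone lists, spread vertically within a list for legibility, with a star where the limma adjusted p is under 0.05. *GstE14* at 0.50 is the one starred probe, and the other points lie between −0.31 and 0.55.

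Clone means were also compared over the wider lists, which include *Hr3* and *br*. This comparison was made after the values of the clones were seen, those of *Hr3* among them. Of 5 measured genes with over 1 clone, 4 had clone means on both sides of 0 (*Hr3*, *br*, *trr* and *DopEcR*), where 39.6% of 1152 genes on the whole array did. For *br* and *DopEcR* this rests on clones with means near 0, LP10481 at −0.006 and GH08370 at 0.004. *br* also has 4 clones, while 1012 of the 1152 genes have 2, so the shares are not strictly alike. *EcR*, *usp*, *Hr39*, *ftz-f1* and *phm* have 1 clone each, so no other clone repeats their values.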

How the data were processed

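The authors deposited 1 value per probe and array, with RNA extraction and dyes per the labels. The deposited values, treated as a score, are all negative, with a median near −1 and a highest value of exactly −0.01 on each array. They were taken to be a linear ratio with its sign turned, and log2 of that ratio was taken. This scale is inferred from the values, and the sources used here name no scanner, background correction or normalization. No intensities were used, so dim probes could not be filtered.

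Of 12144 rows, 160 control spots and 97 probes with a missing value were left out, and 11887 were tested. Symbols came from the platform annotation and were updated with a table of RefSeq genes (Release 6 plus ISO1 MT): 9746 probes by Entrez identifier, 22 by current symbol and 138 by a unique older symbol, while 11 kept their name. No coordinates or sequences are given.

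An intercept was fitted per probe, and per mean of a gene's probes, in limma 3.58.1 (R 4.3.3), with Benjamini-Hochberg adjustment over all probes or genes at 0.05. Errors are SD over 3 arrays, whose number limits precision. The fit was tested on simulated data, in 10 rounds with 200 changed probes. It recovered 57.1% of log2 changes of 0.6 and 81.5% of changes of 1. The simulated noise was independent between probes, and each change was the same on all 3 arrays. Effects of a clone library or of a differing array were not simulated, so the shares recovered may not hold for the real arrays. Smaller changes were not simulated, and every mean of an ecdysone gene probe was smaller than 0.6 in size. Alternatives covered normalization, missing and floor values, moderation, weights, control spots, scale, clone library and leaving out arrays. The genes and lists were chosen with earlier results of these data known. From each wider list the text names the probes past the threshold, or otherwise the 2 genes of smallest p. Where the text names further genes of these lists, it says that their values were known first.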

Additional observations from a re-analysis of the deposited data

How the results depend on the processing

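In none of the settings tried did a probe of the 7 measured ecdysone genes pass the test. With linear ratios, centred clone libraries or an array left out, 0 probes of the whole array passed. Those settings could therefore give no other outcome for these genes. The smallest limma adjusted p of a gene mean over all 113 values was 0.143, for *ftz-f1* without array B (mean 0.39). Without array C the means of *ftz-f1* (−0.15) and *phm* (−0.065) reversed, and no other gene mean changed sign. The median of gene means ran from −0.065 to 0.096 with an array left out, and was 0.05 without *ftz-f1*, an alternative added after seeing the data, as was leaving GH13132 out of *br*. The counts over all probes were less steady than 61 high and 123 low: array weights gave 184 and 257, control spots kept gave 40 high, probes with 1 symbol 26 and 65, and an adjusted p of 0.10 gave 300 and 383. With linear ratios there were 0 high and 0 low calls (limma's unadjusted p was under 0.05 for 2168 probes), and with centred clone libraries also 0 and 0 (2204 probes). Leaving out an array gave 0 to 0 calls over all probes (1307, 2365 and 1852 at an unadjusted p under 0.05 without A, B and C) and 0 to 0 high calls in the wider lists, which array weights raised to 2, with 0 low calls in each. The cause was not tested. *GstE14* passed under 9 of 14 alternatives (limma adjusted p from 0.0300 to 0.236). Under each of the others 0 probes of the whole array passed. Each array holds both samples, so the fitted ratio already compares wounded with unwounded embryos within an array.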

Other observations

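Of the 50 probes of the wider hormone lists that belong to none of the genes above, 7 lay outside the middle 90% of probes in the difference between array B and the mean of arrays A and C, 3 below and 4 above. By definition 5% of all tested probes lie below that range and 5% above it, so the count is not read as a trait of these lists. The 7 probes were chosen after their values were seen. *jhamt*, which encodes the methyltransferase that completes juvenile hormone, had log2 ratios of −0.04, 0.60 and −0.27 on arrays A, B and C, so array B alone was high, 0.76 above the mean of the other two. *InR* lay 0.54 above, with array A higher still and array C low. *ImpE2* and *shd* lay 0.40 and 0.39 above, each with array B the highest. *Eig71Ee*, an ecdysone-induced gene of the late puff at 71E, had 0.06, −0.42 and 0.30, with a difference of −0.60. *Eip93F*, which encodes a regulator of metamorphosis, had −0.02, −0.36 and 0.18, with a difference of −0.44. *DopEcR* clone GH15292 had a difference of −0.41. None of the 7 passed the test for a mean ratio (limma adjusted p from 0.345 to 0.960), and array B was not tested against the others.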
